A study of Rattus norvegicus with 6 samples.

Results

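Cholesterol and fatty acids are built from acetyl-CoA by separate enzyme chains that share much of their control. A set of 37 genes was listed by name for this account: the enzymes of the mevalonate and sterol chains, the proteins that set sterol level, and the enzymes that make, desaturate, elongate and activate fatty acids. Of these, 35 genes were measured, by 53 of 15866 probe sets, among 10411 genes in all. Hmgcs1, which makes the HMG-CoA that enters the mevalonate chain, and Abca1, a cholesterol exporter, had no probe set among those used and enter only the promoter windows. The genes were listed by name, and where a gene had several probe sets the one of highest mean over the 6 arrays stood for it.

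The tissue was intact cerebral resistance arteries of Dahl rats, a line bred for a blood pressure that responds to dietary salt, taken as first branches of the basilar artery and the arterial ring at the brain's base. The high salt group ate chow with 8% NaCl, for 11 weeks by one label and 12 weeks by another, and the low salt group ate chow with 0.4% NaCl for 12 weeks. Both diets began at 7 weeks of age, and rats of both groups had low salt chow before that. Each diet had 3 arrays, each of RNA pooled from 3 rats (9 rats per diet), so an array gives no spread between single animals. Some arteries were snap frozen and others were stored in preservative solution; which arrays held which is not labelled.

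In mammalian cells the transcription factors Srebf1 and Srebf2 switch on most of these genes when membrane sterol is low. The escort protein Scap carries them to the Golgi for cleavage, and Insig1 and Insig2 hold Scap back when sterol is plentiful. In an artery the products go into the membranes of smooth muscle and endothelium, while in brain tissue astrocytes and myelinating cells are known as strong makers of cholesterol.

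Promoter windows of 30 listed genes were matched in RefSeq (assembly GRCr8), 31 windows in all because Srebf1 had 2, each from 250 bases before to 50 bases after the annotated start. Of the measured genes, 28 had one. Windows for Pmvk, Fdft1, Sqle, Abcg1, Fasn, Acaca and Elovl6 are not used here. The sterol element searched, TCACNCCAC on either strand, was in 0 of 31 windows and in 1.12% of the windows of genes on the array. With so low a share, a count of 0 in 31 windows is no result about the members. Its shorter form CACNCCAC, which lies within it, was in 5 of 31 windows (16.1%), those of Acat2, Fads1, Insig1, Elovl5 and Acsl4, and in 5.93% of the windows of genes on the array. The box CCAAT, a site of factor NF-Y in many promoters, was in 20 of 31 windows (64.5%) against 37.1% of the windows of genes on the array. The GC box GGGCGG was in 22 of 31 windows (71.0%) against 58.6%. A letter match is a description of these windows and not a measured binding site.

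These 6 windows belong to genes that the results turn on. Insig1, Msmo1 and Scd2 had low salt arrays that stood far apart, and Fads1, Nsdhl and Acsl5 had diets that did not overlap. Capitals mark CCAAT or CACNCCAC on either strand. The windows lie at chr4:8057720-8058019 (minus strand, Insig1), chr16:29746863-29747162 (plus strand, Msmo1), chr1:253118127-253118426 (plus strand, Scd2), chr1:216252442-216252741 (plus strand, Fads1), chrX:155817110-155817409 (plus strand, Nsdhl) and chr1:264294601-264294900 (plus strand, Acsl5), all in GRCr8 and all written 5′ to 3′ on the gene's strand.
Insig1: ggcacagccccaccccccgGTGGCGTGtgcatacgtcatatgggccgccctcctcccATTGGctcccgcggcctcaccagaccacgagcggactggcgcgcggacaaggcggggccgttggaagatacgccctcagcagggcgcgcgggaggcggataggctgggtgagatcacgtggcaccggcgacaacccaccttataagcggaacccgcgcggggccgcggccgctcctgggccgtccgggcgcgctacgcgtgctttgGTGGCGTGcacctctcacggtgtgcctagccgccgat
Msmo1: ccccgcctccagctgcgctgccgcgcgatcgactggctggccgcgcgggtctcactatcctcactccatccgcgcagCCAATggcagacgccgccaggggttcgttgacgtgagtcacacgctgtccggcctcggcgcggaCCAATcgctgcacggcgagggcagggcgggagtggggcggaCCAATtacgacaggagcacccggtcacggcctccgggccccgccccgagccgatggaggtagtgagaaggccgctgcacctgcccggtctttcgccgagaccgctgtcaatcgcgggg
Scd2: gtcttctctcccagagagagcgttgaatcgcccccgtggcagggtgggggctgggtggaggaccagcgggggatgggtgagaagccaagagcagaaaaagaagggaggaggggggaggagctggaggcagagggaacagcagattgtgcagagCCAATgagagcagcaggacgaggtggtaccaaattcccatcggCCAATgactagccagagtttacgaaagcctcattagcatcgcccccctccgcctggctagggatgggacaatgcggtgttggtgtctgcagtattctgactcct
Fads1: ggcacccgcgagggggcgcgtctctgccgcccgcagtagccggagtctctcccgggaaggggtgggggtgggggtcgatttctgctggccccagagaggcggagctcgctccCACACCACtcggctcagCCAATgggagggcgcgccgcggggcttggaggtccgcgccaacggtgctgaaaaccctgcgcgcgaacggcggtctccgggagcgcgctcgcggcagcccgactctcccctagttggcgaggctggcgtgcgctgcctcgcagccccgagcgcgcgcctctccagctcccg
Nsdhl: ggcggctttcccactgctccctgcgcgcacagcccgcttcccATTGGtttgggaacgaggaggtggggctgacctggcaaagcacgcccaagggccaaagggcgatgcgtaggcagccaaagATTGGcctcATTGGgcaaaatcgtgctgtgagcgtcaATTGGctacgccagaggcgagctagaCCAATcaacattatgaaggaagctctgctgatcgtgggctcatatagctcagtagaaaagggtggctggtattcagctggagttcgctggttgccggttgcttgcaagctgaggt
Acsl5: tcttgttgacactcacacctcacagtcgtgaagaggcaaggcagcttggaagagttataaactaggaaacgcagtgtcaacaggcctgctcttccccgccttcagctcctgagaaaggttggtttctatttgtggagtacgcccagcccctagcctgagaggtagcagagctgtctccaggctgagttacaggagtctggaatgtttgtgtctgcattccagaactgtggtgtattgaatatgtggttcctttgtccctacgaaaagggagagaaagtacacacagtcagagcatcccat
Nsdhl had 5 CCAAT boxes in its window, Msmo1 had 3, Scd2 had 2, and Fads1 and Insig1 had 1 each. Insig1 had 2 matches to CACNCCAC and Fads1 had 1. The Acsl5 window had 0 of either.

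Values are log2 signals per probe set. A difference is high salt minus low salt, with the standard error (SE) of limma's moderated fit, and 1 log2 unit is a factor of 2 in signal. After Benjamini-Hochberg adjustment over all probe sets, limma called 0 of 35 members at an adjusted p below 0.05, and 0 of 15866 probe sets (0%). The lowest adjusted p was 0.803 among the members and 0.540 among all probe sets. At an unadjusted p below 0.05 there were 4 members of 35 (11.4%), against 6.43% of all genes. These were Pmvk and Acsl5, higher on high salt, and Fads1 and Nsdhl, lower on high salt.

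The high salt arrays lay wholly above the low salt arrays for 2 members (5.71%), Pmvk and Acsl5, against 8.64% of all genes. They lay wholly below for 3 members (8.57%), Fads1, Nsdhl and Acaca, against 3.32% of all genes. The difference was above 0 for 24 of 35 members (68.6%), against 60.0% of all genes, with a median of 0.18 against 0.07. After median centring of the arrays it was above 0 for 19 of 35 members (54.3%), against 42.8% of all genes. The medians were then 0.05 for the members and -0.06 for all genes. After quantile normalization it was again above 0 for 19 of 35 (54.3%), against 46.3% of all genes. The medians were then 0.06 for the members and -0.02 for all genes. Median centring lowered every difference by the same 0.13 log2 units, and it moved 25 of 35 members by over 1.5 times or turned their sign. Quantile normalization did so for 25 of 35.

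**Figure D1:**
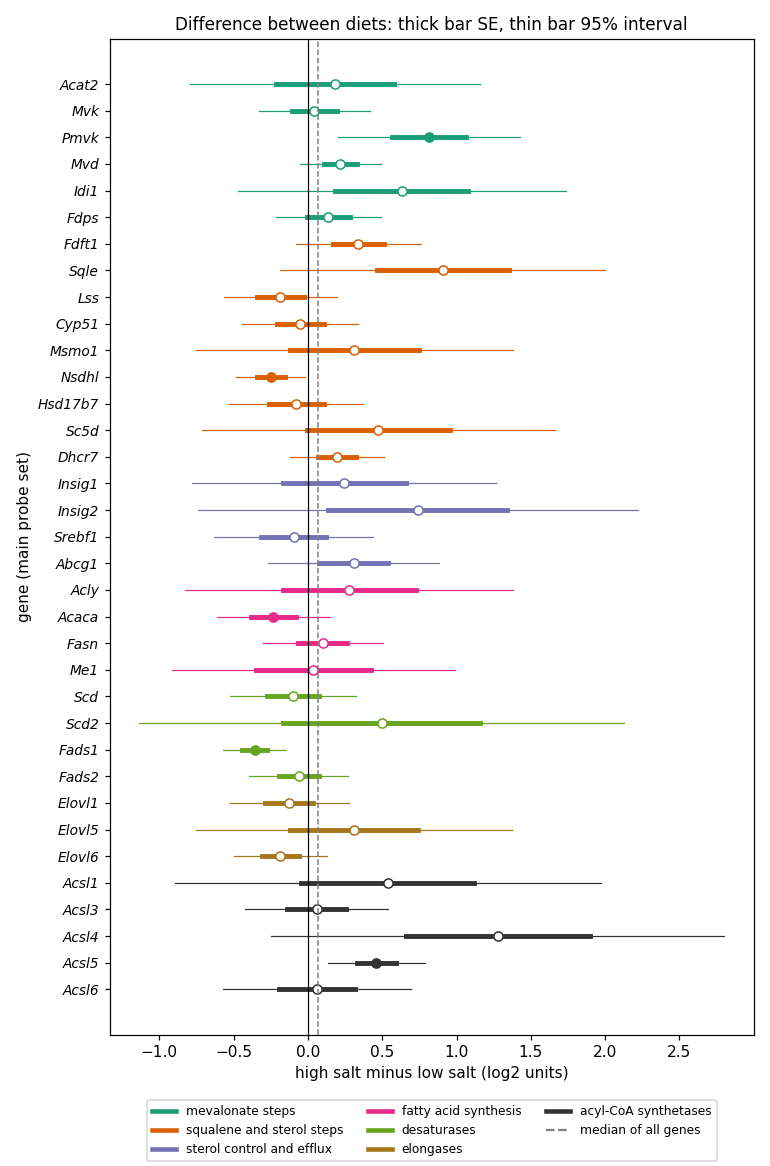
Difference between diets (high salt minus low salt, log2 units) for the 35 measured genes, grouped by role, with the SE as a thick bar and the 95% interval as a thin bar. Filled points mark the 5 genes whose diets did not overlap, and the dashed line is the median of all genes, 0.07.

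The mevalonate steps, from acetyl-CoA to the isoprenoid farnesyl diphosphate, were higher on high salt for 6 of 6 measured genes, with a median difference of 0.20 and 0 genes called. Median centring left 5 of 6 higher with a median of 0.07, and quantile normalization 4 of 6 with a median of 0.16. By main probe set, Pmvk, phosphomevalonate kinase, was the one step with no overlap between diets. Its signal was 10.29, 9.65 and 9.82 on the high salt arrays, against 8.90, 8.90 and 9.53 on the low salt arrays. Every high salt array was above every low salt array, the closest being high salt replicate 2 and low salt replicate 3. The means were 9.92 ± 0.33 on high salt and 9.11 ± 0.37 on low salt (SD, n = 3 each), a difference of 0.81 ± 0.25 (SE) with a 95% interval of 0.20 to 1.42. That is 1.76-fold, with an adjusted p of 0.803 (limma, Benjamini-Hochberg).

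Idi1, which isomerises the isoprene unit, read 8.59, 8.15 and 8.21 on high salt, against 6.65, 8.20 and 8.20 on low salt. Low salt replicate 1 alone was low, and the other low salt arrays lay inside the high salt range. The difference was 0.63 ± 0.45, and 0.12 without that array. The other Idi1 probe set had no overlap, with 8.03, 7.96 and 7.85 on high salt, against 7.53, 7.82 and 7.82 on low salt. Its difference was 0.22 ± 0.12, and 0.09 after median centring. Acat2, the cytosolic thiolase at the head of the chain, had 8.41, 8.49 and 8.70 on high salt, against 7.75, 9.25 and 8.05 on low salt. Its low salt arrays enclosed all high salt arrays, and the difference was 0.18 ± 0.40. Mvd, the decarboxylase, differed by 0.22 ± 0.11, Fdps, farnesyl diphosphate synthase, by 0.14 ± 0.14 and Mvk, mevalonate kinase, by 0.04 ± 0.15. The signs of Fdps and Mvk turned after quantile normalization (-0.09 and -0.10), and that of Mvk also after median centring (-0.09). Median centring gave 0.09 for Mvd, whose mean signal of 6.34 was below the lower quartile of probe set means, 6.60. The other probe sets of Mvk gave -0.07 ± 0.13 and -0.03 ± 0.10.

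The squalene and sterol steps, which close the sterol rings and trim them to cholesterol, were split: 5 of 9 were higher on high salt and 4 lower, with a median difference of 0.19 and 0 called. The median was 0.06 with median centring and 0.11 with quantile normalization. Sqle, squalene epoxidase, a rate-controlling step, read 9.80, 9.92 and 9.97 on high salt, against 8.09, 9.92 and 8.97 on low salt. The high salt arrays lay within 0.17 log2 units of each other, while the low salt arrays spread over 1.82. The means were 9.90 ± 0.09 on high salt and 8.99 ± 0.91 on low salt (SD, n = 3 each), and the difference was 0.91 ± 0.44, with a 95% interval of -0.19 to 2.00 that holds 0. It was 0.46 without low salt replicate 1, and leaving out replicate 2 of that diet gave 1.37.

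Nsdhl, a sterol dehydrogenase of the demethylation steps, ran the other way with little spread. Its signal was 8.17, 8.23 and 8.29 on high salt, against 8.52, 8.39 and 8.54 on low salt. No arrays of the diets overlapped. The difference was -0.25 ± 0.09, with a 95% interval of -0.48 to -0.02, a ratio of 0.84 and an adjusted p of 0.803 (limma, Benjamini-Hochberg). Median centring gave -0.38 and quantile normalization -0.42, each more than 1.5 times the value above.

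Msmo1, the sterol methyl oxidase, read 10.12, 10.02 and 10.34 on high salt, against 9.04, 10.78 and 9.73 on low salt. Low salt arrays were both the lowest and the highest of the 6, and the difference was 0.31 ± 0.43. Sc5d, the sterol desaturase late in the chain, had a difference of 0.47 ± 0.48 with a low salt range of 1.76. Fdft1, squalene synthase, differed by 0.34 ± 0.17 and Dhcr7, a reductase late in the chain, by 0.19 ± 0.13. The other probe set of Fdft1, of mean signal 8.59 against 8.63 for the main one, gave -0.03 ± 0.15. The 4 genes below 0 included, beside Nsdhl, Lss (lanosterol synthase, -0.18 ± 0.15), Hsd17b7 (a ketosteroid reductase of the chain, -0.08 ± 0.18) and Cyp51 (the lanosterol demethylase, -0.05 ± 0.16).

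**Figure D2:**
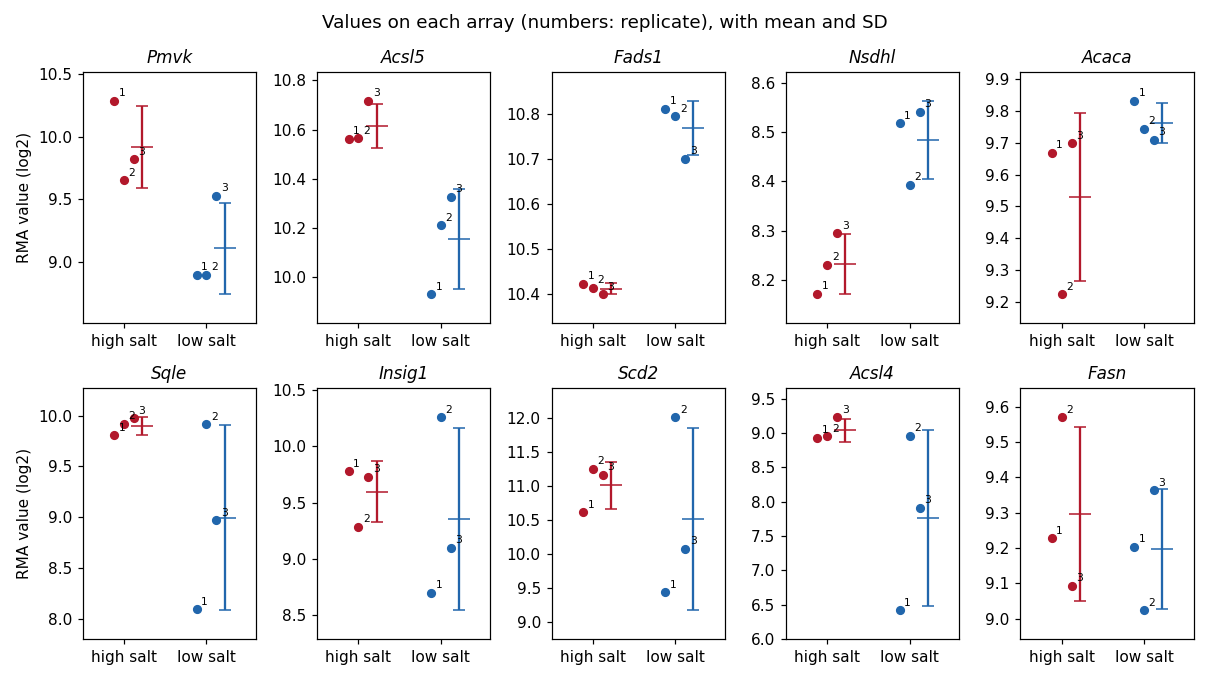
Log2 signal on each array for 10 genes, high salt left and low salt right in each panel, with numbers for replicates, and the mean and SD as a dash and bar. Fads1, Nsdhl, Pmvk, Acsl5 and Acaca show no overlap between diets, while Sqle, Insig1, Scd2 and Acsl4 show high salt arrays that spread over 0.17 to 0.64 log2 units and low salt arrays that spread over 1.56 to 2.57.

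Among the genes of control and efflux, 3 of 4 were higher on high salt, with a median difference of 0.28 and 0 called. The median was 0.15 with median centring and 0.06 with quantile normalization. Insig1, itself a target of the factors it restrains, read 9.78, 9.28 and 9.73 on high salt, against 8.70, 10.26 and 9.10 on low salt. The low salt arrays enclosed the high salt ones, and the difference was 0.24 with a 95% interval of -0.78 to 1.27. Without low salt replicate 1 it was -0.08. Insig2, its relative, read 9.74, 9.47 and 10.06 on high salt, against 7.84, 10.26 and 8.95 on low salt, in the same order of low salt arrays. Its difference was 0.74 ± 0.60.

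Srebf1, the factor that drives fatty acid genes, read 9.45, 9.76 and 9.46 on high salt, against 9.57, 10.07 and 9.32 on low salt. The diets overlapped, with means of 9.56 ± 0.18 on high salt and 9.66 ± 0.38 on low salt (SD, n = 3 each) and a difference of -0.10 ± 0.22. Median centring made it -0.23 and quantile normalization -0.33, and the other Srebf1 probe set gave -0.25 ± 0.20. Abcg1, a cholesterol exporter of macrophages and endothelium, differed by 0.31 ± 0.23. Its other probe sets gave -0.21 ± 0.14 and 0.02 ± 0.14.

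The enzymes that make palmitate and feed that synthesis had a median difference of 0.07, with 3 of 4 higher on high salt and 0 called. Centring the arrays on their medians gave -0.06, and quantile normalization gave -0.15. Fasn, fatty acid synthase, read 9.23, 9.57 and 9.09 on high salt, against 9.20, 9.02 and 9.36 on low salt. The arrays of the diets were interleaved. Means were 9.30 ± 0.25 on high salt and 9.20 ± 0.17 on low salt (SD, n = 3 each), the difference was 0.10 ± 0.16 with a 95% interval of -0.30 to 0.51, and its second probe set gave 0.12 ± 0.17. Median centring turned the sign to -0.03, and quantile normalization to -0.13.

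Acaca, acetyl-CoA carboxylase, which commits carbon to fatty acids, read 9.67, 9.22 and 9.70 on high salt, against 9.83, 9.74 and 9.71 on low salt. All high salt arrays were lower, though high salt replicates 1 and 3 came close to low salt replicate 3. The difference was -0.23 ± 0.15 and rested on high salt replicate 2, since it was -0.08 without it. Median centring gave -0.36 and quantile normalization -0.48. Acly, which makes cytosolic acetyl-CoA from citrate, differed by 0.28 ± 0.45 and Me1, malic enzyme, a source of NADPH, by 0.04 ± 0.39. Both had low salt ranges of over 1 log2 unit.

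The desaturases, which put double bonds into fatty acids, had 1 of 4 genes higher on high salt and 3 lower, with a median difference of -0.08 and 0 called. The median was -0.21 with median centring and -0.08 with quantile normalization. Fads1, the desaturase that makes arachidonic acid from its precursor, had the lowest p of the set. Its signal was 10.42, 10.41 and 10.40 on high salt, against 10.81, 10.80 and 10.70 on low salt. The high salt arrays lay within 0.02 log2 units of each other and all lay below all low salt arrays. Means were 10.41 ± 0.01 on high salt and 10.77 ± 0.06 on low salt (SD, n = 3 each), a difference of -0.36 ± 0.09 with a 95% interval of -0.57 to -0.15.

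As a ratio the Fads1 difference was 0.78, with an unadjusted p of 0.00629 and an adjusted p of 0.803 (limma, Benjamini-Hochberg over all probe sets, range 0.241 to 0.999 over the alternatives). Leaving out each array gave -0.39 to -0.34. The value was -0.59 after quantile normalization, over 1.5 times as large in size. The arrays also spread wider then, over 0.16 on high salt and 0.51 on low salt, against 0.02 and 0.11 as deposited. Fads2, the partner desaturase of the same pathway, read 6.23, 6.51 and 6.41 on high salt, against 6.46, 6.26 and 6.62 on low salt. These arrays overlapped, at signals below the array's lower quartile of 6.60 on average, with a difference of -0.06 ± 0.14.

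Scd2, a stearoyl-CoA desaturase prominent in rodent brain, read 10.61, 11.25 and 11.16 on high salt, against 9.44, 12.01 and 10.08 on low salt. Low salt replicate 2 was the highest array and low salt replicate 1 the lowest. The means were 11.01 ± 0.34 on high salt and 10.51 ± 1.34 on low salt (SD, n = 3 each), and the difference of 0.50 ± 0.66 had a 95% interval of -1.14 to 2.13. The other probe sets of Scd2 gave -0.29 ± 0.15 and -0.13 ± 0.10, with low salt ranges of 0.20 and 0.21. Scd, the stearoyl-CoA desaturase best known from liver and fat, read 6.83, 6.87 and 6.94 on high salt, against 6.93, 7.31 and 6.69 on low salt. Its difference was -0.10 ± 0.17, with the high salt arrays inside the low salt range.

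The elongases add carbon to fatty acids made or eaten, and 1 of 3 was higher on high salt and 2 lower, with a median difference of -0.13 and 0 called. The median was -0.26 with median centring and -0.23 with quantile normalization. Elovl5, which elongates polyunsaturated fatty acids, differed by 0.31 ± 0.43, with 12.46, 13.03 and 12.74 on high salt, against 11.69, 13.35 and 12.26 on low salt. As for Scd2, low salt replicate 2 was highest and low salt replicate 1 lowest. Elovl6, which elongates palmitate, differed by -0.19 ± 0.13 and Elovl1, which makes very long saturated chains, by -0.13 ± 0.16.

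The acyl-CoA synthetases, which activate fatty acids for use, were higher on high salt for 5 of 5 genes, with a median difference of 0.46 and 0 called. With median centring 3 of 5 were higher, with a median of 0.33, and with quantile normalization 4 of 5, with a median of 0.22. Acsl5, the form known from intestine and liver, read 10.56, 10.56 and 10.72 on high salt, against 9.93, 10.21 and 10.33 on low salt. The diets did not overlap. Means were 10.62 ± 0.09 on high salt and 10.15 ± 0.20 on low salt (SD, n = 3 each). The difference was 0.46 ± 0.13, with a 95% interval of 0.13 to 0.79, 1.38-fold, with an adjusted p of 0.803 (limma, Benjamini-Hochberg). It was 0.22 after quantile normalization, less by over 1.5 times.

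Acsl4, which prefers arachidonic acid, had the largest difference of the 35 members and one of the widest spreads. It read 8.93, 8.95 and 9.23 on high salt, against 6.42, 8.96 and 7.91 on low salt. Low salt replicate 2 lay among the high salt arrays, while the other low salt arrays lay below them. The difference was 1.28 ± 0.62 (2.42-fold), with a 95% interval of -0.25 to 2.80, and it ran from 0.61 without low salt replicate 1 to 1.87 without low salt replicate 2. Acsl1, the main form of fat and heart, read 10.86, 11.12 and 10.80 on high salt, against 9.07, 11.39 and 10.72 on low salt. Its difference was 0.54 ± 0.58, and -0.13 without low salt replicate 1.

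The remaining synthetases had overlapping diets. Acsl3, which supplies lipid droplets, differed by 0.06 ± 0.20. Acsl6, a form of brain and erythroid cells, read 7.04, 7.20 and 7.10 on high salt, against 6.93, 7.61 and 6.62 on low salt, a difference of 0.06 ± 0.26. Both of these signs turned after median centring (-0.07 for each).

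For part of the members the low salt arrays stood far apart. A range of over 1 log2 unit among the 3 high salt arrays was found for 0 of 35 members and 3.69% of all genes. Such a range among the 3 low salt arrays was found for 13 of 35 members (37.1%) and 22.6% of all genes. The 13 were Scd2, Acsl4, Insig2, Acsl1, Sqle, Acly, Sc5d, Msmo1, Elovl5, Insig1, Idi1, Acat2 and Me1, with ranges of 2.57 for Scd2 down to 1.46 for Me1. Each of the 7 roles had at least 1 of them.

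In 13 of these 13 the order was low salt replicate 2, then 3, then 1, though Idi1 was equal to 2 decimals on replicates 2 and 3. Of all genes with so wide a low salt range, 64.3% had this order. Low salt replicate 1 was the lowest of all 6 arrays for 13 of the 13, against 71.4% of such genes, and low salt replicate 2 was the highest of all 6 for 9 of the 13 (69.2%), against 33.4%. After quantile normalization 14 members had so wide a range, and 13 of them (92.9%) had the order, against 45.3% of such genes. Low salt replicate 1 was then lowest of all 6 arrays for 13 of the 14, against 49.0%. These shares are descriptions, with no test, since the genes share the same 6 arrays.

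**Figure D3:**
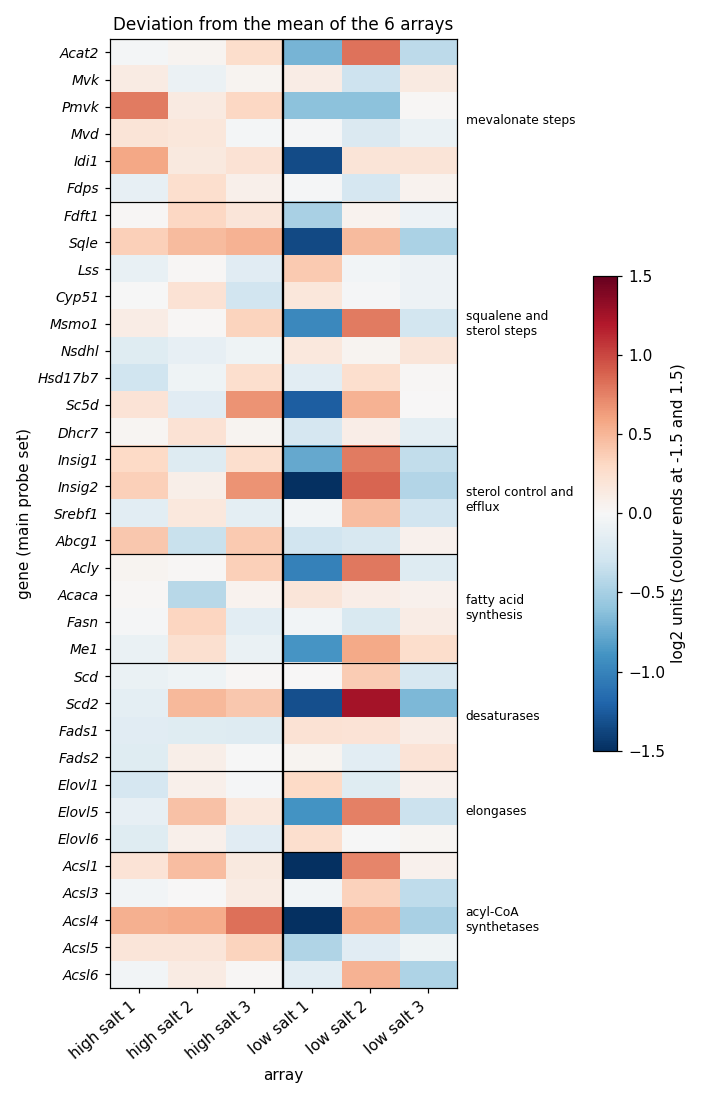
Deviation of each array from the gene's mean over 6 arrays (log2 units, colour ends at ±1.5) for the 35 measured genes in rows, grouped by role, with high salt arrays left of low salt arrays. Low salt replicate 1 is below the mean and low salt replicate 2 above it for most genes with a low salt range over 1 log2 unit, and the high salt columns are paler.

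Without low salt replicate 1, 9 of the 13 differences were below 0, those of Sc5d (-0.03), Scd2 (-0.04), Elovl5 (-0.06), Insig1 (-0.08), Msmo1 (-0.09), Acat2 (-0.12), Acsl1 (-0.13), Acly (-0.16) and Me1 (-0.40). The other 4, those of Acsl4 (0.61), Sqle (0.46), Insig2 (0.15) and Idi1 (0.12), were above 0. A fall was fixed in advance, since low salt replicate 1 was the lowest array for 13 of the 13. These counts have no share over all genes beside them and are no result about the members. The median low salt range was 0.63 over the members and 0.51 over all genes, while the median high salt range was 0.32 over the members and 0.31 over all genes. For the other pathway genes listed below, the median low salt range was 1.21 (cholesterol) and 0.55 (fatty acid). Over the cell type marker lists below it ran from 0.29 (oligodendrocyte and myelin) to 1.82 (astrocyte). A wide low salt range was thus not particular to the members. Median signal was 9.39 over the members and 8.62 over all genes, and its part in the ranges was not tested.

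Other probe sets of these genes had narrower low salt ranges. Of the 13 genes, 6 had 7 other probe sets, and 0 of the 7 had a low salt range over 1 log2 unit, the ranges being 0.19 to 0.78. Of the 7, 2 (of Sc5d and Scd2) had a mean below the array's lower quartile of 6.60. Those of Idi1, Sc5d and Me1, 3 of the 7, kept the order of low salt replicates 2, 3 and 1, with replicate 1 lowest of all 6 arrays. For Acsl1 the other probe set read 9.63, 9.92 and 9.66 on high salt, against 9.81, 9.62 and 9.65 on low salt. It spread over 0.19 among the low salt arrays, against 2.32 for the main probe set of the same gene, and its difference was 0.04 ± 0.12. For Me1 the other probe set had low salt replicate 2 highest (8.93) and replicate 1 lowest (8.15) of all arrays. Over all members, the 18 other probe sets had the sign of the main one in 9 cases and the opposite sign in 9, in 7 genes (Mvk, Fdft1, Lss, Cyp51, Abcg1, Scd2 and Elovl5). The probe sets of Lss, for example, gave -0.18 ± 0.15 and 0.33 ± 0.18.

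**Figure D4:**
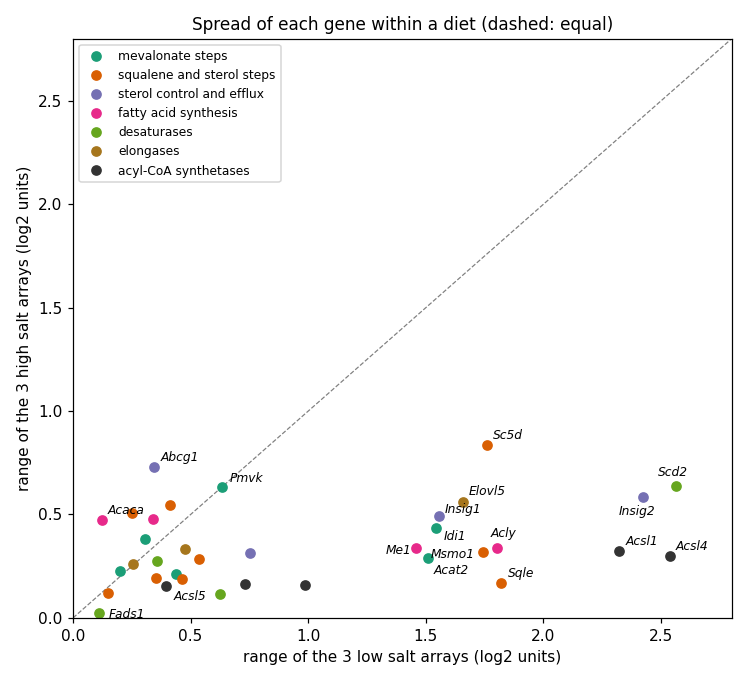
Range of the 3 high salt arrays (vertical axis) against the range of the 3 low salt arrays (horizontal axis) for the 35 genes, in log2 units, with the dashed line where they are equal. For 26 of 35 genes the low salt range was the wider, as it was for 70.8% of all genes.

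By role, the mean over mevalonate genes was 8.81, 8.67 and 8.70 on high salt, against 8.13, 8.49 and 8.54 on low salt, the one role whose high salt means all lay above its low salt means. The acyl-CoA synthetases averaged 9.30, 9.40 and 9.42 on high salt, against 8.29, 9.53 and 8.86 on low salt. Their low salt replicate 2 stood above all high salt arrays and the other low salt arrays below. The mean over all members was 9.19, 9.24 and 9.28 on high salt, against 8.67, 9.39 and 9.02 on low salt, and over all genes 8.63, 8.59 and 8.63 on high salt, against 8.37, 8.54 and 8.52 on low salt. Over all genes, as over the mevalonate genes, every high salt mean lay above every low salt mean. Low salt replicate 2 was the highest array for the members but not for all genes.

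Other genes of cholesterol handling gave 16 of 19 measured higher on high salt and 3 lower, with a median difference of 0.42 (0.29 after median centring, 0.20 after quantile normalization), and 0 called. The list of 28 was chosen by name and shares no gene with the members. The lowest p values were those of Scap, the sterol-sensing escort (0.42 ± 0.14), Npc2, which moves cholesterol out of lysosomes (0.56 ± 0.20), Mbtps1, the first protease that cuts the factors (0.78 ± 0.31), and Apoe, the lipid carrier that astrocytes and macrophages secrete (0.95 ± 0.38). The adjusted p of each was 0.803 (limma with Benjamini-Hochberg adjustment). Apoe read 13.66, 13.76 and 13.64 on high salt, against 12.48, 13.62 and 12.11 on low salt, without overlap. Srebf2, the factor that drives cholesterol genes, differed by -0.03 ± 0.18.

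Other genes of fatty acid handling gave 26 of 39 measured higher on high salt and 13 lower, with a median difference of 0.11 and 0 called. The median was -0.02 with median centring and 0.09 with quantile normalization. The lowest p values included those of Slc25a1, the carrier that brings citrate out of mitochondria for Acly (0.81 ± 0.24), Mlycd, malonyl-CoA decarboxylase (0.53 ± 0.16), Fabp5, a fatty acid binding protein (0.72 ± 0.26), and Hacd3, an enzyme of fatty acid elongation (0.77 ± 0.29).

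The arteries carried the markers of their labelled tissue. The 8 smooth muscle markers averaged 11.48, 11.38 and 11.31 on high salt, against 12.00, 11.12 and 12.02 on low salt, with 0 of 8 higher on high salt. Markers of brain tissue were present too and differed between arrays. The 10 astrocyte markers averaged 10.18, 9.78 and 9.91 on high salt, against 8.91, 10.13 and 8.18 on low salt. Of these, 9 of 10 were higher on high salt, against 60.0% of all genes, with a median difference of 0.70 against 0.07. Low salt replicate 2 was the low salt array closest to the high salt arrays in both lists, as in the members, but the astrocyte mean was lowest on low salt replicate 3 and the member mean on low salt replicate 1.

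Of the other marker lists, the 7 measured oligodendrocyte and myelin markers averaged 8.56, 8.77 and 8.79 on high salt, against 8.36, 8.80 and 8.20 on low salt, with 2 below the array's lower quartile of signal. The 7 macrophage and microglia markers averaged 9.42, 9.71 and 9.67 on high salt, against 8.87, 9.08 and 9.48 on low salt. The 6 endothelial markers averaged 10.81, 10.67 and 10.87 on high salt, against 10.36, 10.41 and 10.57 on low salt. The 5 adipocyte markers averaged 6.91, 6.84 and 6.66 on high salt, against 6.76, 6.65 and 6.63 on low salt, with 3 of 5 below the lower quartile. The 7 neuronal markers averaged 7.25, 7.14 and 7.13 on high salt, against 7.07, 7.45 and 6.99 on low salt, with 3 of 7 below the lower quartile. The 8 fibroblast and meningeal markers averaged 11.04, 11.47 and 11.33 on high salt, against 10.79, 11.43 and 11.01 on low salt. The 3 red blood cell markers averaged 10.99, 10.46 and 11.18 on high salt, against 10.03, 10.22 and 10.17 on low salt. The fibroblast and red blood cell lists had the members' low salt order, replicate 2, then 3, then 1. In both, low salt replicate 1 was lowest of all 6 arrays, as in the members, but low salt replicate 2 was not the highest. Low salt replicate 1 was also the lowest array in the macrophage and endothelial lists. Markers higher on high salt were 3 of 3 for red blood cells, 5 of 6 for endothelium and 6 of 8 for fibroblasts and meninges. They were 5 of 7 for macrophages, 5 of 7 for myelin, 3 of 7 for neurons and 2 of 5 for adipocytes. Median differences of these lists ran from -0.09 (neuron) to 0.93 (red blood cell). The part of these cell types in the members' values was not tested, and fewer cells of a type and less RNA per cell cannot be told apart in whole arteries.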

How the data were processed

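The deposited table held 1 log2 value per probe set and array; the authors made these values with RMA (background correction, normalization and probe summary), per the submitters' processing notes, with no version named there. The labels do not state the log base; 2 was taken from RMA's usual output and the span of the values. Array medians ran from 7.96 to 8.17 and interquartile ranges from 2.57 on low salt replicate 1 to 3.18, so the arrays were not fully equalised.

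Of 15923 rows, 57 control probe sets were left out. Probe sets with 1 symbol (12783) were named from the platform annotation, of which 12748 matched RefSeq by Entrez identifier. The 312 with several symbols and 2771 with none named no gene. A gene's main probe set was that of highest mean over 6 arrays. High salt was set against low salt with limma 3.58.1 in R 4.3.3 (lmFit, eBayes, no block), with Benjamini-Hochberg adjustment over 15866 probe sets and a call at an adjusted p below 0.05. The number of arrays limits the precision. The spread between pools holds biological and technical error together.

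The members, lists and tests were chosen with earlier results of these data known. Array values were named for members with an unadjusted p below 0.05 or no overlap, for landmark genes of the pathways (Sqle, Insig1, Srebf1, Fasn, Scd, Scd2, Fads1, Fads2 and Acsl6), and also for Idi1, Acat2, Msmo1, Insig2, Elovl5, Acsl1, Acsl4 and Apoe, which were chosen after their values were seen. In the other pathway lists up to 4 genes of lowest p were named. The fit was checked on simulated data. Alternatives were median centring, quantile normalization, a 40th percentile filter on mean value, variances with a trend or made robust, weights per array, a block for replicate number, dropping single arrays, averaging the probe sets of a gene, adjusting over 1 probe set per gene, and other thresholds. The main fit did not pair arrays by replicate number. Same-numbered arrays' deviations from their diet means correlated at 0.04, -0.27 and 0.04 for numbers 1, 2 and 3. Those of different-numbered arrays correlated at -0.39 to 0.37. With 3 arrays per diet these values cannot settle whether the numbers pair the arrays.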

Additional observations from a re-analysis of the deposited data

How the results depend on the processing

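The count of members called was 0 under every alternative at an adjusted threshold, and 4 members and 846 probe sets had an unadjusted p below 0.05. Each gene's difference had 15 alternatives, or 14 for the 5 members below the 40th percentile filter (Mvd, Scd, Fads2, Elovl6 and Acsl6). The sign held in all that were run for 15 members and turned in at least 1 for 20. The lowest adjusted p of a member in any of them was 0.161 (limma, Benjamini-Hochberg; Sqle without low salt replicate 2). After median centring the difference was -0.088 for Mvk, -0.030 for Fasn, -0.094 for Me1, -0.072 for Acsl3 and -0.070 for Acsl6. After quantile normalization it was -0.10 for Mvk, -0.094 for Fdps, -0.13 for Fasn, -0.17 for Me1 and -0.15 for Acsl3. With array weights, whose estimation stopped before it converged, it was -0.011 for Mvk, 0.00459 for Cyp51, 0.048 for Srebf1, -0.17 for Me1 and 0.037 for Scd. With probe sets of a gene averaged it was -0.018 for Mvk and 0.075 for Lss. The replicate number as a block turned no sign and gave 0 calls, with a median difference of 0.19 for sterol synthesis. Leaving out each array in turn gave a range of -0.12 to 0.63 for Acat2, -0.10 to 0.12 for Mvk, -0.17 to 0.081 for Cyp51, -0.094 to 0.78 for Msmo1, -0.22 to 0.053 for Hsd17b7, -0.026 to 0.85 for Sc5d, -0.082 to 0.70 for Insig1, -0.26 to 0.11 for Srebf1, -0.16 to 0.74 for Acly, -0.036 to 0.20 for Fasn, -0.40 to 0.33 for Me1, -0.24 to 0.068 for Scd, -0.037 to 1.25 for Scd2, -0.15 to 0.024 for Fads2, -0.060 to 0.77 for Elovl5, -0.13 to 1.04 for Acsl1, -0.12 to 0.24 for Acsl3 and -0.15 to 0.34 for Acsl6. The cause was not tested. Low salt replicate 1 turned 11 of these signs, the most of the 6 arrays.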
